A study of Mus musculus with 24 samples.

Results

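Hox genes encode the homeodomain transcription factors that give cells along the body axis their regional identity, and they lie in the genome in clusters named HoxA, HoxB, HoxC and HoxD. They were followed here in 24 mammary tumors of mice. A probe was taken as a member where the name deposited for it is Hox, a cluster letter and a number. This rule gave 44 of 39429 probes, for 39 genes. Of these genes, 29 had a signal strong enough to be tested, among 20937 tested genes in all. The tested members were 7 of 11 in HoxA, 8 of 10 in HoxB, 8 of 9 in HoxC and 6 of 9 in HoxD. The members that failed were Hoxa2, Hoxa5, Hoxa11, Hoxa13, Hoxb1, Hoxb13, Hoxc11, Hoxd1, Hoxd12 and Hoxd13, and the probes of Hoxb1 and Hoxd12 were well above background in no tumor. A second probe of Hoxd11 also failed. No spot of a member was saturated.

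All tumors arose in female BALB/c mice given the carcinogen DMBA, and each was hybridised on its own 2-color array beside RNA pooled from 11 mouse cell lines. The mice ate a low fat diet (LFD) or a high fat diet (HFD) from before puberty, or were switched between them at the end of the peripubertal period (LFD-HFD and HFD-LFD, in the order eaten). The labels also give the onset of each tumor as early or late. Tumors of early onset came from HFD (3) and HFD-LFD (3) mice, and those of late onset from LFD (5), HFD (6), LFD-HFD (4) and HFD-LFD (3) mice, so that 6 early stood against 18 late tumors. Tumors are named by the number of their deposited label, such as MSU_51. The labels do not give the mammary gland a tumor came from or its histology, so neither could be set beside the Hox values. The tumors are bulk tissue, in which fewer cells of a type and less RNA per cell cannot be told apart.

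The share of probes well above background on an array ran from 66.8% to 89.2% for tumor RNA and from 63.6% to 86.9% for the reference. The luminal keratins Krt8 and Krt19 and the basal keratins Krt5 and Krt14 were well above background on all 24 arrays. Onset and slide went together: the 3 HFD early tumors filled a slide of their own, and the 3 HFD-LFD early tumors shared slide 4 with 1 late tumor, MSU_45 (LFD-HFD). By the scan times in the file headers, slides 4 and 5 were scanned in the same session (session 2), which held the HFD-LFD early tumors and 3 late ones. The HFD early tumors were scanned in session 1 with 8 late ones. On slides 6 and 7, which held 7 late tumors, rows with dimmed Cy5 signal took 24.5% and 22.1% of spots. Members on those rows have no value in those tumors.

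In development the Hox genes of a cluster are switched on in the order in which they lie, retinoic acid induces the genes of the 3′ end first, and polycomb and trithorax proteins then keep them off or on in each cell lineage. Hox proteins bind DNA together with partners of the TALE class such as Pbx and Meis. In the mammary gland Hoxa9, Hoxb9 and Hoxd9 are needed together for the gland to grow in pregnancy, and several HoxB, HoxC and HoxD genes are transcribed in its epithelium and stroma.

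The results turn first on the 3′ part of HoxD, so the promoters of the members that rose together there, Hoxd3, Hoxd4 and Hoxd8, are shown beside that of Hoxd10, a neighbour that did not rise with them. Each is 300 bases of the plus strand of chromosome 2 in RefSeq's annotation of GRCm38.p6, from 250 bases before the gene's start to 50 after it, and capitals mark AGGTCA or its reverse complement TGACCT, the half-site bound by retinoic acid receptors and other nuclear receptors. The positions are chr2:74711743-74712042 for Hoxd3, chr2:74721728-74722027 for Hoxd4, chr2:74704365-74704664 for Hoxd8 and chr2:74691641-74691940 for Hoxd10.
Hoxd3 promoter: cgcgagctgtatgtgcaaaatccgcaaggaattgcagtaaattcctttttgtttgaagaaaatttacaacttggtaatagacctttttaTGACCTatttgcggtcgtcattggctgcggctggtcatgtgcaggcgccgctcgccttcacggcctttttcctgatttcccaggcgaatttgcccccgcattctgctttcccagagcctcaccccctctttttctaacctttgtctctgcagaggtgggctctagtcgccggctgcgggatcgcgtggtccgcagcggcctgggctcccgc
Hoxd4 promoter: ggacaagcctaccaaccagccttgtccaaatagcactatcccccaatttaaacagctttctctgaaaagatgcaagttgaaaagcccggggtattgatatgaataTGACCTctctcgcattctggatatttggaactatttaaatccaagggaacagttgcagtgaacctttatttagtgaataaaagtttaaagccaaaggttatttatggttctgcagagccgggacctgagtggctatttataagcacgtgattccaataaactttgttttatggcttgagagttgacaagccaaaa
Hoxd8 promoter: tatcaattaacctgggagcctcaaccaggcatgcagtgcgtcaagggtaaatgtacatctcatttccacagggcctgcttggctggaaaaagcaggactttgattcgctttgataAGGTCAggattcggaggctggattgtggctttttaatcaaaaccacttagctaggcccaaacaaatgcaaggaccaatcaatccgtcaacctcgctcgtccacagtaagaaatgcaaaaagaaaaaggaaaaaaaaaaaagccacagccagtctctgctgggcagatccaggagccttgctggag
Hoxd10 promoter: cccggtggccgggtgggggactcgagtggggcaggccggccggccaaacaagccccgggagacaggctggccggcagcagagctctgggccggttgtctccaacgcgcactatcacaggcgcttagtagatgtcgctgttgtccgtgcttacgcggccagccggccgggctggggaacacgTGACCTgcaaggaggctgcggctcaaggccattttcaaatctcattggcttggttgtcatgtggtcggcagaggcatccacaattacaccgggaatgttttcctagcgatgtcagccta

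All 4 windows held the motif once on either strand. Its first base lay 161 bases before the start of Hoxd3, 145 before that of Hoxd4, 135 before that of Hoxd8 and 69 before that of Hoxd10. The motif was present in 16.3% of 32851 such windows in the annotation, in 29.2% of 24 windows of Hox members and in 40.0% of 10 windows of HoxD members. The windows of Hoxd3 and Hoxd10 held 20 and 22 CpG dinucleotides, those of Hoxd4 and Hoxd8 held 4 and 6, and the median of all windows was 7. A match is a description of the letters. The motif was shared by the genes that rose and Hoxd10, and the 4 windows shown were all those of HoxD members that held it. It was absent from the windows of Hoxd9, which lies between Hoxd8 and Hoxd10, and of Hoxd1, Hoxd11, Hoxd12 and Hoxd13. Its part in the rise was not tested. The start of Hoxd3 in this annotation lies 5′ of that of Hoxd4, so a transcript from it spans Hoxd4.

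Expression is given as the log2 ratio of tumor to reference RNA, normalized within each array, on which a difference of 1 is a fold of 2. The labels put tumor RNA in Cy5, and the direction used here follows them. It is opposite to that in the written methods, which assign the dyes the other way round. It rests on the spread between arrays, because a common reference should vary little: over 27296 probes the median SD between arrays was 0.44 in Cy5 and 0.21 in Cy3, and over probes of Hox members it was 0.66 and 0.24.

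**Figure D1:**
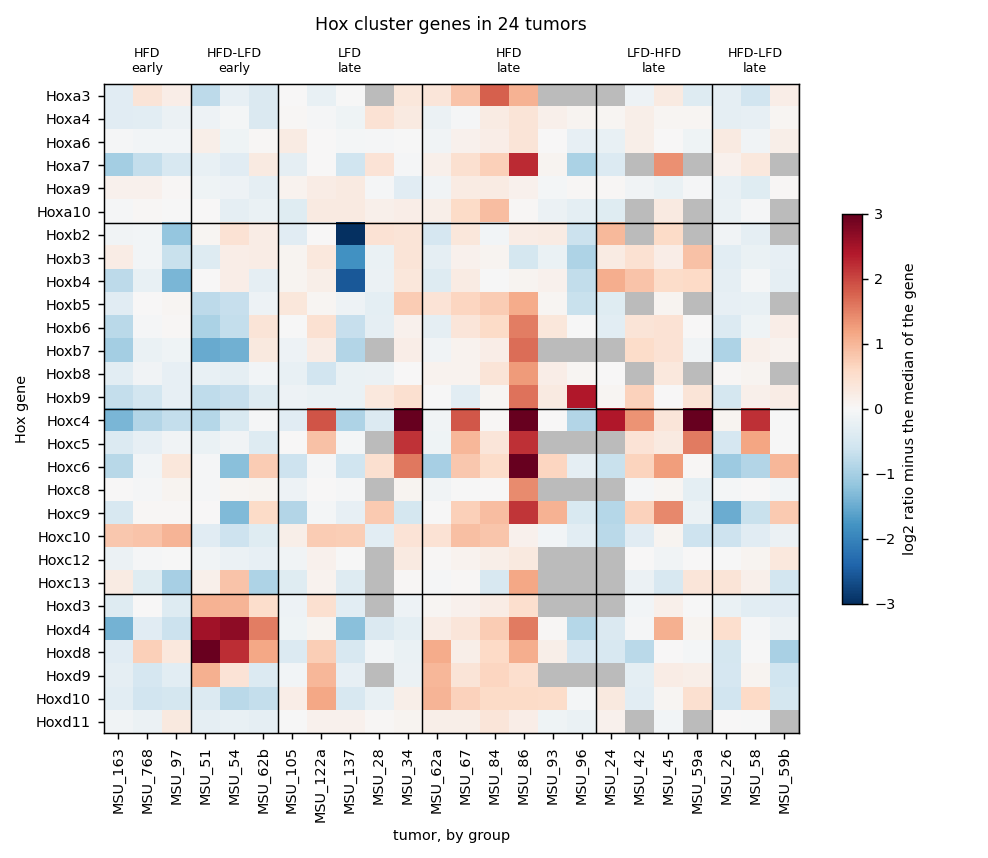
Log2 ratio of tumor to reference of 28 tested Hox genes (rows, by cluster) in 24 tumors (columns, by diet and onset), each minus the median of its gene. The scale is limited to -3 and 3, and grey cells have no value. Hoxd3, Hoxd4 and Hoxd8 stand out in the 3 HFD-LFD early tumors, and MSU_86 of HFD late lies above the median in most of them.

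Tumors of early onset were compared between their 2 diets, a comparison that was added after the values had been seen. Hoxd4, Hoxd3 and Hoxd8, which lie near each other in HoxD, rose by 8.26, 2.16 and 3.69 times in the HFD-LFD early tumors compared with the HFD early tumors. Hoxc10 fell. These 4 of 29 members were called at an adjusted p under 0.05, in limma with Benjamini-Hochberg adjustment over all tested genes, against 10.8% of all genes. Those called higher were 3 of 29 members and 5.99% of all genes, and those called lower were 1 member and 4.80%. At an unadjusted p under 0.05 the same number of members, 4, was found beside 27.0% of all genes.

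Hoxd4 is a 3′ HoxD gene that responds to retinoic acid in the embryonic hindbrain. Its log2 ratio was 2.47, 2.62 and 1.48 in the HFD-LFD early tumors MSU_51, MSU_54 and MSU_62b, and -1.47, -0.40 and -0.70 in the HFD early tumors MSU_163, MSU_768 and MSU_97. The 2 groups did not overlap. The difference was 3.05 (SE 0.49, adjusted p = 0.00136). Late tumors lay between -1.32 and 1.49 with a median of -0.06, so that 1 of them, MSU_86 of HFD late, reached the lowest HFD-LFD early tumor.

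Hoxd3, its neighbour on the 3′ side, takes part in patterning the neck vertebrae. It was 0.91, 0.88 and 0.38 in the HFD-LFD early tumors and -0.53, -0.12 and -0.52 in the HFD early tumors. In this gene every HFD-LFD early tumor lay above every other tumor that was measured, the highest of which was MSU_86 at 0.36. The difference between the early groups was 1.11 (SE 0.20, adjusted p = 0.00413).

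Hoxd8, on the 5′ side of Hoxd4, is a trunk gene of the cluster. It was 1.44, 0.68 and -0.36 in the HFD-LFD early tumors and -1.87, -0.82 and -1.21 in the HFD early tumors. The difference was 1.88 (SE 0.45, adjusted p = 0.0122). Here too the HFD-LFD early tumors lay above all 21 others, although MSU_62b was close to the next tumor, MSU_62a of HFD late at -0.42. The early groups did not overlap in 5 members with HFD-LFD above (Hoxa7, Hoxb2, Hoxd3, Hoxd4 and Hoxd8) and 3 with it below (Hoxa9, Hoxc10 and Hoxd11), beside 47.5% of all genes (27.3% above and 20.2% below). In 2.64% of all genes the 3 HFD-LFD early tumors stood apart from the other tumors, above them in 1.39% and below in 1.25%. Hoxd11 was the member that lay below, at -0.93, -0.89 and -0.95, but it was well above background in none of the HFD-LFD early tumors and in 1 HFD early tumor, and the bound on its fold between these groups is at least 1.05-fold lower.

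Hoxd9 and Hoxd10, which lie 5′ of Hoxd8, did not pass the same test. Hoxd9 was 0.36, -0.31 and -1.12 in the HFD-LFD early tumors and -0.98, -1.21 and -1.04 in the HFD early tumors, which overlap (difference 0.72, adjusted p = 0.191). Hoxd10 was low in both, at -1.12, -1.53 and -1.44 in HFD-LFD early and -1.04, -1.30 and -1.25 in HFD early. MSU_62b, which lay above all HFD early tumors in Hoxd4, lay within their range in Hoxd9.

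**Figure D2:**
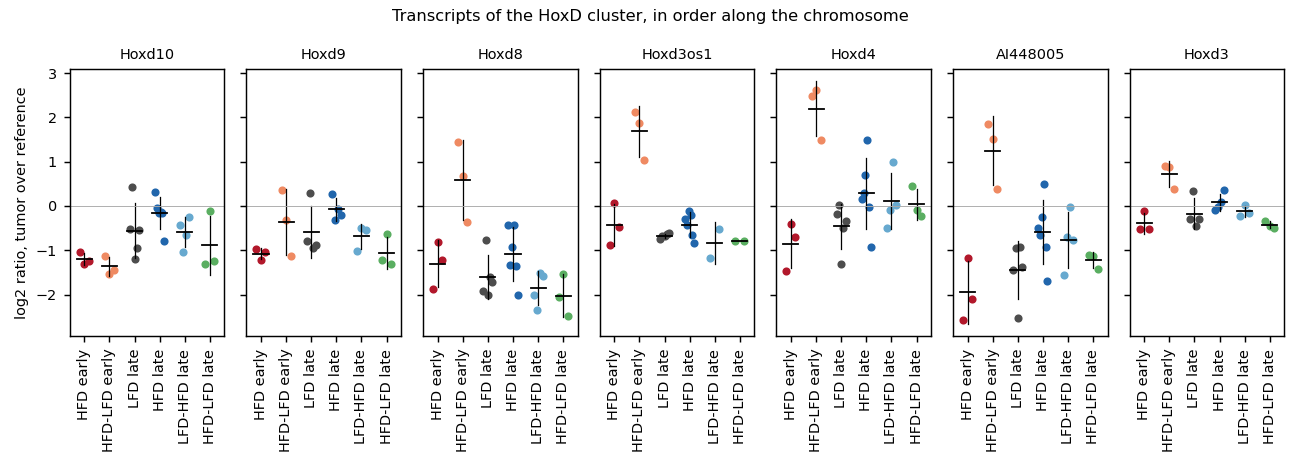
Log2 ratio of tumor to reference of HoxD transcripts in the order of their probes along chromosome 2, by group. Points are tumors, the bar is the group mean and the line its SD. From Hoxd8 to Hoxd3 the HFD-LFD early group has the highest mean, 0.59 for Hoxd8, 1.68 for Hoxd3os1, 2.19 for Hoxd4, 1.25 for AI448005 and 0.72 for Hoxd3, whereas Hoxd10 has its lowest group mean there, -1.37.

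The 3 probes inside HoxD that passed the filter and do not belong to members, which were looked at after the Hox values were known, moved with these genes. Hoxd3os1 is transcribed from the opposite strand, and its probe lies at chr2:74548166-74548225 of mm9 between those of Hoxd8 and Hoxd4. It was 2.12, 1.88 and 1.04 in the HFD-LFD early tumors and between -0.88 and 0.06 in the HFD early tumors, and the 15 late tumors measured ran from -1.17 to -0.11. Its difference between the early groups was 2.11 (adjusted p = 4e-04). AI448005, at chr2:74569698-74569757 between the probes of Hoxd4 and Hoxd3, was 0.38 to 1.85 in HFD-LFD early and -2.58 to -1.18 in HFD early, a difference of 3.20 (adjusted p = 0.00133). Its 18 late tumors ran from -2.53 to 0.50, so that the highest, MSU_86, lay above the lowest HFD-LFD early tumor. A transcript of the minus strand without a gene symbol, at chr2:74588186-74588245, differed by 0.83 (adjusted p = 0.0181 over all probes). The genes that flank the cluster, Evx2 and Lnpk 5′ and Mtx2 3′, did not pass this test (log2 differences 0.32, -0.42 and -0.19, adjusted p = 0.325, 0.0904 and 0.579). The rise thus covered 6 transcripts with probes between 74545171 and 74588245 of chromosome 2 in mm9. Since genes overlap here, a probe of 1 of them may also have bound a longer transcript of another, which was not tested. Hoxd1, the most 3′ member, failed the signal filter and was not tested.

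Hoxc10, a 5′ HoxC gene of the lumbar region and hindlimb, was -1.24, -1.53 and -1.27 in the HFD-LFD early tumors and -0.09, -0.06 and 0.11 in the HFD early tumors. The difference was -1.33 (SE 0.30, adjusted p = 0.00972). This gene also separated all arrays by scan session: the 11 tumors of session 1 lay between -0.78 and 0.11 and the other 13 between -1.72 and -0.83. Such a separation was seen in 1 of 29 members and in 0.683% of all genes. Its mean log2 signal was 7.68 in session 1 and 6.93 in the others in the tumor channel, and 7.95 and 8.22 in the reference channel. Diet, slide and scan session of the early tumors cannot be told apart, since each early group lay on 1 slide and was scanned in 1 session.

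For the early groups the session could be taken into account only through the late tumors. With session as a fixed block, Hoxd4 differed by 2.95 (adjusted p = 0.134), Hoxd8 by 1.88 (adjusted p = 0.302) and Hoxc10 by -0.74 (adjusted p = 0.443), Hoxd3 could not be fitted, and none of the 21 members that could be was called, as 0 of 15941 genes were. With slide as a random block all 4 calls held, at adjusted p of 0.0102 for Hoxd4, 0.0225 for Hoxd3, 0.0234 for Hoxc10 and 0.0475 for Hoxd8. That fit cannot separate slide from diet in the early groups, because the tumors of each shared a slide. MSU_45, the late tumor on the slide of the HFD-LFD early tumors, was 1.0 for Hoxd4, 0.02 for Hoxd3 and -1.52 for Hoxd8, in each case below the 3 early tumors beside it. Without MSU_54, 2 members were called.

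Early and late tumors were next compared within each of the 2 diets that had both. In HFD-LFD, Hoxd8, Hoxd3 and Hoxd4 were again the members that rose in early tumors, by 6.12, 2.23 and 4.46 times. They were 3 of 29 members called, against 0.888% of all genes, and 0.530% of all genes were called higher. These contrasts use the same HFD-LFD early tumors as the one above and are not independent of it.

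In the HFD-LFD late tumors MSU_26, MSU_58 and MSU_59b, Hoxd8 was -2.06, -1.53 and -2.49, more than 1 log2 unit below the lowest early tumor. The difference was 2.61 (SE 0.45, adjusted p = 0.00895). Hoxd3 was -0.34, -0.46 and -0.49 there, a difference of 1.15 (SE 0.20, adjusted p = 0.0129). Hoxd4 was 0.44, -0.10 and -0.23, a difference of 2.16 (SE 0.49, adjusted p = 0.0384). The early tumors were above all late ones in these genes and Hoxb2, and below them in Hoxb8, Hoxc4, Hoxc12 and Hoxd11. Hoxd11 was well above background in none of these 6 tumors, and its order there is given no weight. The groups did not overlap in 34.6% of all genes, with early tumors below in 19.6%. Hoxd9 differed by 0.70 and did not pass (adjusted p = 0.341), and Hoxd10 was -1.30, -0.12 and -1.25 in the late tumors, which overlap the early ones. Hoxd3os1 rose by 2.48 (adjusted p = 0.00163) and AI448005 by 2.48 (adjusted p = 0.0219).

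These calls depended in part on the slide. With slide as a random block Hoxd8 kept its call at 2.59 (adjusted p = 0.034), whereas Hoxd3 at 1.14 (adjusted p = 0.0541) and Hoxd4 at 2.05 (adjusted p = 0.121) lost theirs. Hoxd3os1 kept its call at 2.44 (adjusted p = 0.00651) and AI448005 lost it at 2.40 (adjusted p = 0.0765). No member was called when MSU_51 was left out, and 1 was when MSU_54 or MSU_58 was.

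In HFD the early tumors showed no such rise, and the changes called were falls, of Hoxd10 and Hoxa3. They were 2 of 29 members called, against 13.3% of all genes, and 7.41% of all genes were called lower and 5.86% higher. At an unadjusted p under 0.05 there were 11 members, beside 30.2% of all genes. Hoxd10, a 5′ HoxD gene of the lumbar region and limb, was -1.04, -1.30 and -1.25 in HFD early tumors and ran from -0.79 to 0.31 in the 6 HFD late tumors, with a median of -0.15. The groups did not overlap, and the difference was -1.03 (SE 0.30, adjusted p = 0.029), a fold of 2.05. Hoxa3, a gene of the pharyngeal arches, was -2.28, -1.57 and -1.74 in HFD early tumors and -1.59, -1.08, -0.16 and -0.90 in the 4 HFD late tumors measured. Its difference was -0.93 (SE 0.29, adjusted p = 0.042), although the highest HFD early tumor, MSU_768, lay just above the lowest HFD late tumor, MSU_62a.

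Most other members tended the same way in HFD without passing the test. The difference was below 0 in 26 of 29 members, with a median of -0.58, while 41.7% of all genes lay above 0 and their median was -0.08. Hoxd9 (-1.0, adjusted p = 0.0509) and Hoxd4 (-1.14, adjusted p = 0.0751) were near the threshold. All 6 HoxD members lay below 0. The groups did not overlap, early tumors being lower, in Hoxa4, Hoxb7, Hoxb8, Hoxc12, Hoxd3, Hoxd9 and Hoxd10, 7 of 29 members beside 11.0% of all genes, and in none with early tumors higher, beside 8.42%. The HFD late group includes MSU_86, which was high in most members, and without it 1 member was called, Hoxd10. Both calls were lost with slide as a random block, Hoxd10 at -1.02 (adjusted p = 0.0978) and Hoxa3 at -0.93 (adjusted p = 0.127). None of the 2 calls held when any 1 of the 3 HFD early tumors was left out, and 6 members were called without MSU_96.

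The change with onset was opposite in sign in the 2 diets for Hoxd3, Hoxd4, Hoxd8 and Hoxd9. Signs were also opposite for Hoxb2, Hoxb4, Hoxc6, Hoxc8, Hoxc9, Hoxc10 and Hoxc13, so that this was not particular to HoxD. For Hoxd8 the change within HFD was small beside its error, -0.21 (SE 0.39, adjusted p = 0.749). The difference between the changes did not pass its test for any gene on the arrays. It was -1.63 for Hoxd3 (adjusted p = 0.143), -3.30 for Hoxd4 (adjusted p = 0.207), -2.83 for Hoxd8 (adjusted p = 0.22) and -1.70 for Hoxd9 (adjusted p = 0.447). These were the 4 members with an unadjusted p under 0.05, as 1698 of all genes (8.11%) had in limma.

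**Figure D3:**
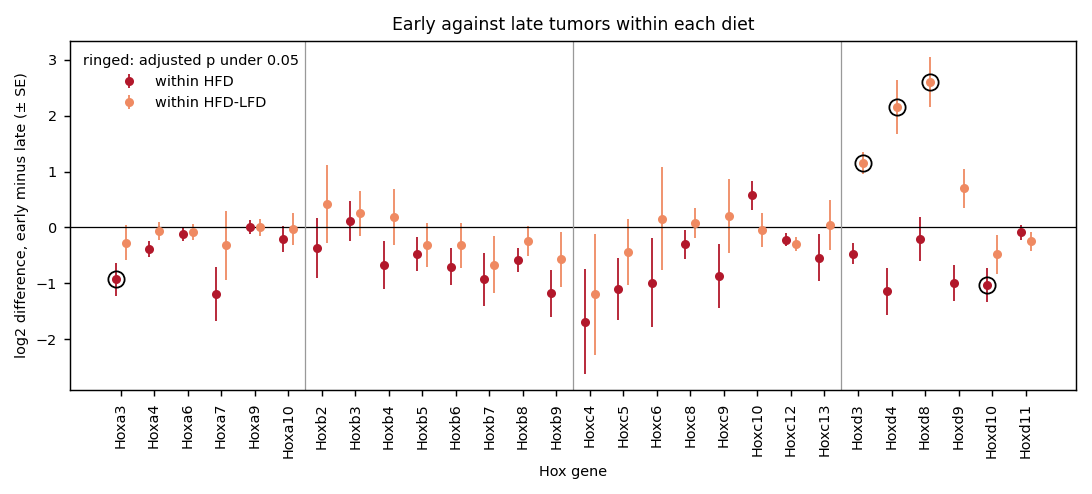
Log2 difference between early and late tumors of 28 Hox genes within HFD (dark red, 3 against 6 tumors) and within HFD-LFD (orange, 3 against 3). Points are estimates and lines are SE, and a ring marks an adjusted p under 0.05. Hoxa3 and Hoxd10 are ringed below 0 within HFD, and Hoxd3, Hoxd4 and Hoxd8 above 0 within HFD-LFD, where Hoxd8 reaches 2.61.

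The 6 early tumors were then compared with all 18 late tumors, the main comparison of the study's design. All early tumors came from mice that ate HFD through puberty, whereas the late ones included 5 LFD and 4 LFD-HFD tumors. Onset and pubertal diet are therefore partly mixed in this comparison. Hoxd10, Hoxa4 and Hoxb9 were lower and Hoxd8 was higher in early tumors. These were 4 of 29 members called, against 17.7% of all genes. Of the members 1 was called higher, against 6.91% of all genes, and 3 lower, against 10.8%. At an unadjusted p under 0.05 there were 11 members, beside 33.6% of all genes. Without regard to the test, 23 of 29 members lay below 0, with a median of -0.30, while 43.0% of all genes lay above 0 and had a median of -0.06. Hoxd8 kept its call with slide as a random block (adjusted p = 0.0377), and Hoxd10 (adjusted p = 0.0684), Hoxa4 (adjusted p = 0.102) and Hoxb9 (adjusted p = 0.159) lost theirs. Hoxb9 also lost its call in 8 of the 24 fits that each left out 1 tumor. Without MSU_86 the same 4 members were called. Under median centring in place of loess the median was 0.21 for all genes and -0.15 for the members.

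Hoxd10 ran from -1.53 to -1.04 in early tumors, with a median of -1.27, and from -1.30 to 0.43 in late tumors, with a median of -0.48. Every early tumor lay below the late median. The difference was -0.79 (SE 0.21, adjusted p = 0.0139), a fold of 1.73. Within scan sessions 1 and 2 it was -0.96 (adjusted p = 0.0662) and -0.67 (adjusted p = 0.19). Its probe lies in the coding sequence of the homeobox, at chr2:74532280-74532339 of mm9 on the plus strand, where Hox genes are most alike, and cross-hybridisation was not tested. The probe is shown for that reason.
Hoxd10 probe: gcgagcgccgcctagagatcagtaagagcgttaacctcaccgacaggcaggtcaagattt

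Hoxd8 ran from -1.87 to 1.44 in early tumors and from -2.49 to -0.42 in late tumors, a difference of 1.20 (SE 0.35, adjusted p = 0.022) or 2.31 times. The 3 HFD early tumors lay inside the late range and the 3 HFD-LFD early tumors above it. The difference was -0.10 within session 1 (adjusted p = 0.886) and 2.29 within session 2 (adjusted p = 0.0281). With session as a fixed block it was 0.87 (adjusted p = 0.0864), and it lost its call without MSU_51 or without MSU_54.

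Hoxa4 belongs to the retinoic acid-responsive 3′ part of HoxA. It ran from -1.12 to -0.75 in early tumors and from -0.95 to -0.26 in late tumors, and the difference was small, -0.31 (SE 0.09, adjusted p = 0.0262). Hoxb9, one of the genes needed for the gland to grow in pregnancy, ran from -2.49 to -1.96 in early tumors and from -2.24 to 0.69 in late tumors, where MSU_96 and MSU_86 were highest at 0.69 and -0.08. Its difference was -0.85 (SE 0.28, adjusted p = 0.0404), or 1.81 times. In both genes the early tumors formed a narrow band around the low end of the late range. Within sessions 1 and 2 Hoxb9 differed by -0.66 and -0.50, and Hoxa4 by -0.35 and -0.06, and neither passed within a session.

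The largest difference among the members was that of Hoxc4, at the 3′ end of HoxC, and it missed the threshold (-1.70, SE 0.60, adjusted p = 0.0507). Early tumors ran from -3.28 to -1.95. Late tumors ran from -2.84 to 1.91 with a median of -1.68, so that some late tumors were as low as the early ones while others were far above them. Hoxc5, its neighbour, was -0.81 to -0.51 in early tumors and -0.91 to 1.78 in late tumors (difference -0.90, SE 0.34, adjusted p = 0.0671). No member separated all early from all late tumors, as 0.759% of all genes did.

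By cluster, the median difference was -0.31 over HoxA with 0 of 7 members above 0, -0.43 over HoxB with 2 of 8, -0.29 over HoxC with 1 of 8 and 0.08 over HoxD with 3 of 6. In HoxD members were called both ways, Hoxd8 higher and Hoxd10 lower.

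Markers of cell types moved with onset too. Of 10 luminal markers 5 were lower in early tumors (Gata3, Prlr, Esr1, Foxa1 and Krt19), beside 10.8% of all genes, and the mean log2 ratio of the list ran from -0.05 to 2.39 in early and from -1.29 to 3.45 in late tumors. Of 7 proliferation genes 6 were higher (list median 0.87), beside 6.91% of all genes. Of these calls 2 luminal (Gata3 and Prlr) and 2 proliferation ones (Top2a and Bub1) held with slide as a random block. The single marker called in each of the lists for basal epithelium (Myh11, 8 tested), squamous epithelium (Sprr3, 11), fibroblasts (Dcn, 9), endothelium (Vwf, 7) and macrophages (Cd14, 6) was lower, although Sprr3 (adjusted p = 0.0679) and Cd14 (adjusted p = 0.0664) were not called with slide as a random block. Sprr3 ran against its list, in which 10 of 11 squamous markers lay above 0, with a median of 1.32. So did 5 of 9 fibroblast markers (median 0.13) and 4 of 8 basal ones (-0.09). Above 0 were also 2 of 6 macrophage markers (-0.16) and 0 of 7 endothelial ones (-0.30), beside a median of -0.06 for all genes. No marker was called among 6 of B and T cells, 6 of adipocytes and 6 of skeletal muscle. Between the early groups, where the 3 HoxD genes rose, Cdh1, Tek, Emcn and Top2a were lower in HFD-LFD (Tek and Emcn also with slide as a random block). They were 1 of 10 luminal, 2 of 7 endothelial and 1 of 7 proliferation genes, beside 4.80% of all genes called lower. None of these lists held a gene called higher, beside 5.99% of all genes. The luminal list ran from -0.05 to 0.41 in HFD-LFD early and from 0.20 to 2.39 in HFD early, the endothelial list from -1.75 to -1.62 and from -1.35 to -1.02, and the fibroblast list from -2.23 to -1.68 and from -2.03 to -1.30. Their part in the Hox values was not tested.

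No Hox gene passed the test of diet between 9 HFD and 5 LFD tumors, and no gene on the arrays did (0 of 20937 in limma). Of the HFD tumors 3 were early, whereas all LFD tumors were late, so this comparison mixes diet with onset. None of the 29 members had an unadjusted p under 0.05, as 982 genes (4.69%) had. The smallest p belonged to Hoxb8 (0.39, SE 0.22, adjusted p = 0.952) and Hoxa3 (0.58, SE 0.33, adjusted p = 0.952). Of the members 22 of 29 lay above 0, with a median of 0.09, beside 47.6% of all genes. In 19 alternative fits, among them late HFD against LFD tumors only, 0 members were called.

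Among late tumors of the 4 diets, likewise, no member was called (2.17% of all genes were), and 4 had an unadjusted p under 0.05, beside 20.4% of all genes. Hoxa3 came nearest, with group means that spanned 1.23 (adjusted p = 0.0548). It was -0.93 ± 0.59 (SD, n = 4) in HFD late tumors, and -1.91 ± 0.23 (n = 4) in LFD, -2.03 ± 0.33 (n = 3) in LFD-HFD and -2.16 ± 0.39 (n = 3) in HFD-LFD late tumors. The HFD late tumors were highest, and 1 of them, MSU_62a at -1.59, lay beside the other diets. Hoxc10 spanned 0.78 (adjusted p = 0.0954), and the session it was scanned in moves with its value, as above.

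Among the late tumors most Hox genes varied more from tumor to tumor than the median gene did. The median SD over late tumors was 0.54 for the members and 0.36 for all genes, and 22 of 29 members lay above the latter. Among the most variable were Hoxc4 (SD 1.51), Hoxc6 (1.23), Hoxc9 (0.94), Hoxb2 (0.92) and Hoxc5 (0.86), all above the 90th percentile of all genes. The least variable were Hoxc12 and Hoxd11, both at 0.14. Their probes were well above background in only 7 of 14 and 5 of 15 usable late tumors, so the small SD cannot be read as steady expression.

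Many genes next to each other in a cluster varied together, though members that are not neighbours were not compared. Over the late tumors the median Pearson correlation of 25 neighbouring pairs of members was 0.62, from -0.04 to 0.95, while that of 20759 neighbouring pairs over the genome was 0.10. It is a description: the pairs share arrays, tumors and their cell makeup, and without MSU_86 the median was 0.42. The median over the genome was not taken again without that tumor. Some pairs rested largely on it: Hoxb8 with Hoxb7 went from 0.72 to 0.24 and Hoxc8 with Hoxc6 from 0.81 to 0.42. The highest were Hoxc5 with Hoxc4 (0.95, 14 tumors), Hoxd10 with Hoxd9 (0.93), Hoxd9 with Hoxd8 (0.93) and Hoxb7 with Hoxb6 (0.93), which were 0.95, 0.92, 0.97 and 0.86 without MSU_86. In HoxB the 3′ genes Hoxb2, Hoxb3 and Hoxb4 went together (0.86 and 0.90 for neighbours), as did Hoxb6 and Hoxb7, but the pair across the boundary, Hoxb5 with Hoxb4, had a correlation of 0.23.

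**Figure D4:**
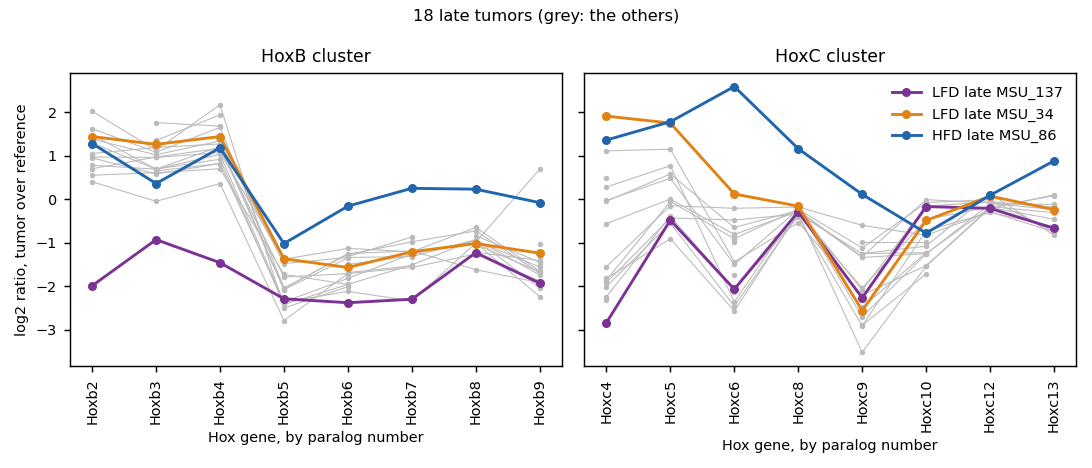
Log2 ratio of tumor to reference of the HoxB and HoxC genes in the order of the cluster, with 1 line for each of 18 late tumors. MSU_137 (purple) is lowest against the other tumors at Hoxb2, Hoxb3 and Hoxb4, with deviations from the median of the gene of -3.04, -1.81 and -2.55 beside -0.89 to -0.15 at the other 5 HoxB genes, MSU_34 (orange) is high at Hoxc4 and Hoxc5, and MSU_86 (blue) is high over most of both clusters, reaching 2.59 at Hoxc6.

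Some tumors stood apart over a stretch of a cluster. MSU_86, of HFD late, lay above the median of the gene in 28 of 29 members, beside 53.7% of all genes. It did so by over 1 log2 unit in 8.44% of all genes and in 16 members. These included 6 of 8 HoxC and 5 of 8 HoxB members. Hoxc6, which is known from mammary epithelium, was 2.59 in this tumor and at most -0.65 in the other HFD late tumors. MSU_86 also had the lowest mean of the luminal list of all 24 tumors (-1.29) and the highest of the squamous (2.66) and fibroblast (0.03) lists. Their part in its Hox values was not tested.

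In MSU_34, of LFD late, the 3′ end of HoxC was high, with Hoxc4 at 1.91 and Hoxc5 at 1.75. Its luminal list mean was 3.39, and 21 of 29 members lay above their median, beside 55% of all genes. MSU_137, also of LFD late, showed the reverse at the 3′ end of HoxB, with Hoxb2 at -1.99, Hoxb3 at -0.93 and Hoxb4 at -1.46, where the next lowest LFD late tumors were at 0.70, 0.69 and 0.92. These 3 genes lie side by side. Its adipocyte list mean was the lowest of all tumors, -4.06, and 4 of 29 members lay above their median, beside 44% of all genes. The part of these lists in the Hox values was not tested.

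The proteins and signals that act on Hox genes were followed as lists. Of the retinoid and Cdx inputs, 17 of 19 were tested, and 3 were higher and 3 lower in early than in late tumors, beside 6.91% and 10.8% of all genes. Aldh1a1, which makes retinoic acid, had the largest change of the list, 4.03 (SE 0.37, adjusted p = 9.78e-07): the 6 early tumors ran from 2.19 to 3.95 and the 18 late tumors from -2.08 to 0.76, with no overlap. Early tumors lay above all late ones in 0.272% of all genes, below them in 0.487% and either way in 0.759%, and 0 of 29 Hox members were separated so. Rdh10, the step before it, rose by 1.47 (SE 0.36, adjusted p = 0.00764) and the receptor Rarb, itself a retinoic acid target, by 1.52 (SE 0.30, adjusted p = 0.00212). The receptor genes Rxrg (-0.41, adjusted p = 0.00679) and Rxra (-0.44, adjusted p = 0.0356) and Cdx2, an activator of trunk Hox genes (-0.62, adjusted p = 0.0334), fell. Rxra (adjusted p = 0.1) and Cdx2 (adjusted p = 0.105) lost their calls with slide as a random block and the other 4 genes kept theirs.

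Aldh1a1 was high in both early groups, 2.19 to 3.16 in HFD and 3.30 to 3.95 in HFD-LFD, and rose within each diet, by 3.40 (adjusted p = 0.00146) and 4.04 (adjusted p = 0.00602). It was also higher in early tumors within session 1 (3.91, adjusted p = 0.0105) and session 2 (3.65, adjusted p = 0.00349). With slide as a fixed block it differed by 3.35 (adjusted p = 0.0668). Hoxd3, Hoxd4 and Hoxd8 were high in 1 of the early groups. Between the early groups no retinoid or Cdx gene was called. Within HFD 5 of 17 were called lower and 1 higher in early tumors, beside 7.41% and 5.86% of all genes. Among the falls were Aldh1a2 (-1.53, adjusted p = 0.0309), which also makes retinoic acid, and Crabp1 (-2.32, adjusted p = 0.0478), which binds it in the cytoplasm. Both lost their calls with slide as a random block (adjusted p = 0.114 and 0.138), and 1 of the 5 falls, that of Rxrg, held.

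Of 23 polycomb genes, which repress Hox loci, 6 were higher and 1 lower in early tumors, beside 6.91% and 10.8% of all genes. Phc1 rose by 1.13 (SE 0.20, adjusted p = 0.00115), Bmi1 by 0.59 (SE 0.13, adjusted p = 0.00367), Suz12 by 0.40 (adjusted p = 0.0182) and Cbx8 by 0.25 (adjusted p = 0.0209), with Ezh2 and Cbx2 also higher and Ring1 lower. Of 12 trithorax and other activators 3 were higher: Rbbp5, a subunit of the methyltransferases for lysine 4 of histone H3, rose by 1.35 (SE 0.23, adjusted p = 0.000615), Psip1 by 0.73 (adjusted p = 0.00294) and Dot1l by 0.40 (adjusted p = 0.0244). Phc1, Bmi1, Ezh2, Rbbp5 and Psip1 kept their calls with slide as a random block, whereas Suz12 (0.38, adjusted p = 0.0729), Cbx8 (0.21, adjusted p = 0.124), Cbx2 (adjusted p = 0.0908), Ring1 (adjusted p = 0.127) and Dot1l (adjusted p = 0.0885) lost theirs. The medians of the repressor and activator lists were 0.09 and 0.28 beside -0.06 for all genes. Between the early groups, Kdm6a, which removes the polycomb mark, fell by 1.86 in HFD-LFD (adjusted p = 0.0145) and Rbbp5 by 0.91 (adjusted p = 0.0173, and 0.0561 with slide as a random block). These were 2 of 12 activators called lower, beside 4.80% of all genes. No polycomb gene was called, beside 10.8% of all genes.

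Among 9 TALE cofactors Pbx3 rose in early tumors, by 1.38 (SE 0.31, adjusted p = 0.00451). Early tumors ran from -0.07 to 0.64 and late tumors from -1.97 to 0.65, and most late tumors were lower.

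Genes that flank the clusters were mostly not called: 14 of 16 were tested, with 1 higher and 2 lower in early tumors, beside 6.91% and 10.8% of all genes. Skap2, beside the 3′ end of HoxA, fell by 1.46 (SE 0.18, adjusted p = 4.48e-05), from 0.04 to 1.77 in late tumors to between -0.97 and 0.54 in early ones. Mtx2, beside the 3′ end of HoxD, rose by 0.59 (SE 0.12, adjusted p = 0.00243), with differences of 0.55 within HFD and 0.70 within HFD-LFD, and Skap1, beside HoxB, fell by 1.04 (adjusted p = 0.0449). The call of Skap1 was lost with slide as a random block (adjusted p = 0.105) and in 14 of the 24 fits that each left out 1 tumor. Between the early groups 1 of 14 was called higher and 2 lower in HFD-LFD, beside 5.99% and 4.80% of all genes. Of these calls the 1 higher held with slide as a random block. Beside HoxC, over all probes, Smug1 differed by -0.89 (adjusted p = 0.0228). There 2 probes of Cbx5 went opposite ways, at 1.54 (adjusted p = 0.0044) and -0.80 (adjusted p = 0.0101). Mtx2 was between -0.20 and 0.06 in HFD-LFD early and between -0.06 and 0.30 in HFD early tumors, and so did not follow Hoxd3 and Hoxd4. With slide as a fixed block, where 72 genes were called in all, none of Aldh1a1, Rarb, Rdh10, Rxrg, Phc1, Bmi1, Rbbp5, Psip1, Pbx3, Skap2 and Mtx2 was, the adjusted p being 0.0668 for Aldh1a1 and from 0.187 to 0.537 for the others.

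**Figure D5:**
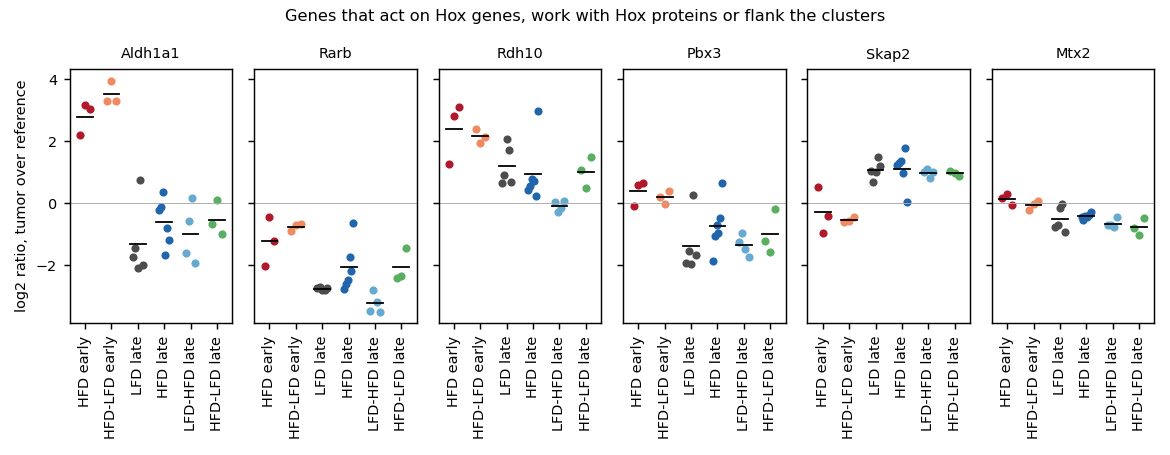
Log2 ratio of tumor to reference of Aldh1a1, Rarb, Rdh10, Pbx3, Skap2 and Mtx2 by group. Points are tumors and the bar is the group mean. Aldh1a1 has means of 2.80 and 3.52 in the early groups and from -1.30 to -0.52 in the late ones, and Skap2 is lowest in the early groups.

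Hoxc13 drives hair keratin genes in the hair follicle, and 16 of 17 genes of the hair shaft were tested beside it. Foxn1 (1.01, SE 0.31, adjusted p = 0.0294) and Krt31 (2.08, SE 0.73, adjusted p = 0.0486) were higher in early tumors, 2 of 16 beside 6.91% of all genes, and the list median was 1.16. Both calls were lost with slide as a random block (adjusted p = 0.0892 and 0.128), and leaving out 1 tumor at a time ended that of Krt31 in 18 of 24 fits, with differences from 1.65 to 2.78, and that of Foxn1 in 4. Hoxc13 itself was not called, with early tumors from -1.27 to 0.57 and late tumors from -0.83 to 0.88. The list mean ran from -1.98 to 2.19 in early and from -1.82 to 1.92 in late tumors, so tumors with high and low hair genes occurred at both times. Lef1 rose by 2.18 between HFD early and HFD-LFD early tumors (adjusted p = 0.0198, and 0.063 with slide as a random block). It was 1 of 16 called higher there, beside 5.99% of all genes.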

How the data were processed

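The arrays were scanned and their spots measured with Agilent Feature Extraction (version 11.0.1.1 per the file headers and 8.5.1.1 per the labels). As deposited by the authors, intensity values are a spot's mean brightness and the median brightness around it in both dyes, not normalized between dyes, beside the intensity less its background. The deposited log10 values are Cy5 over Cy3 ratios that the scanner software had normalized, and they served as an alternative. The study's filter, lowess normalization and imputation across arrays are not in these files.

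The analysis used limma 3.58.1 in R 4.3.3. Spots without an outlier flag were corrected for background (normexp, offset 50), each array's ratios were put through loess, and replicate spots were averaged. Rows with dimmed Cy5 on slides 6 and 7 were set missing and not imputed. A probe was kept where its signal less background exceeded 10 for tumor and reference alike on 80% or more of its usable arrays and each of the 6 groups had 2 values. A gene was represented by its brightest probe on average. Of the 39429 probes 27234 matched a RefSeq table by accession, 3576 through their symbol and 565 through a former symbol, and 8054 kept the file's name.

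Each comparison was a two-sided limma fit (lmFit and eBayes), with Benjamini-Hochberg adjustment over 20937 genes and a threshold of 0.05. Early against late used 24 arrays, HFD against LFD 14, and the others were contrasts of 6 group means. The late tumors of 4 diets were compared by limma's F test. Each p measures the spread between tumors. The spread within an early group holds no difference between slides, since its tumors shared a slide. Fits were tested on simulated data. The members were fixed by their names, but they, the lists and most tests were chosen with earlier results of these data known. Text values were given for members called, or with the smallest p, in each comparison, for at most 4 called genes of each list, and for those said to be chosen after their values were seen. Lists covered TALE cofactors, trithorax, polycomb, retinoid and Cdx genes, genes flanking the clusters, hair shaft genes and markers of 9 cell types and of proliferation. Alternatives were other background, normalization, filter and probe rules, imputation, array weights, slide or session as a block, subsets of tumors and each tumor left out. The values of some single genes are not reported here, though counts and medians over all tested members include every one. Probe positions are on mm9. The number of arrays limits the precision.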

Additional observations from a re-analysis of the deposited data

Results flagged for a closer look

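Within groups of 4 to 10 tumors, 13 Hox values lay far from the others of their group, out of 98 checks of a gene in a group, for 12 genes. Chance flags about 1 group in 20. The checks share tumors and genes that vary together, so the 13 flags cannot be weighed against that rate. In LFD late, MSU_137 was lowest for Hoxb2 (-1.99, next 0.70), Hoxb3 (-0.93, next 0.69) and Hoxb4 (-1.46, next 0.92), which lie side by side. In HFD late, MSU_86 was highest for Hoxb7 (0.25, next -1.21), Hoxb8 (0.23, next -0.65), Hoxc6 (2.59, next -0.65) and Hoxc8 (1.16, next -0.23). Also in LFD late, MSU_105 was highest for Hoxa6 (0.02, next -0.23) and lowest for Hoxa10 (-1.91, next -1.39), and MSU_122a was highest for Hoxd9 (0.29, next -0.79). In LFD-HFD late, MSU_42 was highest for Hoxa4 (-0.50, next -0.62). Over the 6 early tumors, MSU_97 of HFD early was lowest for Hoxb2 (-0.10, next 0.94) and highest for Hoxd11 (-0.37, next -0.77). The probe of Hoxd11 was well above background in 1 of these 6.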

How the results depend on the processing

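The limits on these results are the slide and the small early groups. For early against late (4 members called), 2 were called with the scanner's log ratio, without background correction, in the tumor channel alone and as the mean of the within-diet changes, 13 with array weights, 1 with slide as a random block, 0 with slide as a fixed block, 0 within session 1 and 11 at an unadjusted p. Within HFD (2 called), 1 was called after imputation, without background correction and under median centring, 0 with the scanner ratio, in the tumor channel and with slide as a random block, 13 with array weights, 6 with session as a block, 5 without the dimmed slides and 11 unadjusted. Within HFD-LFD (3 called), 1 was called with the dimmed rows kept and imputed and with slide as a random block, and 0 with slide fixed. For the difference between the diets (0 called), 1 was called after imputation (Hoxd3), 3 with array weights and 4 unadjusted. Across late diets (0 called), 5 were called with array weights and 4 unadjusted, and between the early groups (4 called), 0 with session as a block. Over all genes, 3701 were called for early against late, 7678 with array weights, 5262 under median centring, 5545 with session fixed, 2375 with the dimmed rows kept and imputed, 1782 with slide random and 72 with slide fixed. Genes called higher were 39.1% of these and 82.2% under median centring.

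Of single genes, early against late, Hoxd8 reversed within session 1 (-0.10) and lost its call with slide fixed (2.10), session fixed (0.87) and without the dimmed slides (0.98). Hoxd10 lost its call in the tumor channel (-0.71), with slide random (-0.76) or fixed (-0.71) and within sessions 1 (-0.96) and 2 (-0.67). Hoxa4 lost its call with the scanner ratio (-0.37), without background correction (-0.23), under median centring (-0.29), in the tumor channel (-0.23), with slide random (-0.30) or fixed (-0.27), with session fixed (-0.23), without the dimmed slides (-0.26), within sessions 1 (-0.35) and 2 (-0.06) and as the mean within diets (-0.23). Hoxb9 did so in the same settings (-1.40, -0.75, -0.79, -0.64, -0.80, -0.64, -0.60, -0.65, -0.66, -0.50 and -0.87, in that order) and with no filter (-0.85). Hoxc4 gained a call after imputation (-1.70), with the filter on probes well above background (-1.70), array weights (-1.67), an intensity trend (-1.70), without the dimmed slides (-1.82) and unadjusted (-1.70). Hoxc5 did under median centring (-1.21), in the tumor channel (-1.10), with array weights (-0.91) and unadjusted (-0.90). Over all alternatives with an adjusted p it ran from 0.000286 to 0.581 for Hoxd10, 7.83e-05 to 0.886 for Hoxd8, 0.00544 to 0.803 for Hoxa4, 0.00213 to 0.778 for Hoxb9, 0.00617 to 0.895 for Hoxc4 and 0.00961 to 0.885 for Hoxc5. The causes were not tested.

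With each tumor left out in turn, the members called ran from 2 to 7 for early against late (2 without MSU_51, MSU_54, MSU_163 or MSU_768, 7 without MSU_137), from 0 to 0 for HFD against LFD, from 0 to 6 within HFD, from 0 to 3 within HFD-LFD, from 0 to 1 for the difference (Hoxd4 without MSU_96), from 0 to 2 across late diets (2 without MSU_28) and from 2 to 4 between the early groups. The early-late difference ran from -0.84 to -0.74 for Hoxd10, 0.85 to 1.51 for Hoxd8, -0.35 to -0.27 for Hoxa4, -0.92 to -0.73 for Hoxb9, -1.83 to -1.53 for Hoxc4 and -0.99 to -0.78 for Hoxc5. Fits with slide fixed could not be estimated within HFD, for the difference between the diets and between the early groups. No paired analysis was possible because the labels give the tumors no replicate numbers and pair none of them.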

Other observations

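Of the members that failed the signal filter, Hoxd1 was 0.31 to 0.60 in the HFD-LFD early tumors and -0.27 to 0.13 in the HFD early tumors, and its probe was well above background in 4 of 6 early and 3 of 15 usable late tumors. It is the most 3′ gene of HoxD, and these values carry no test. Hoxa2, at the 3′ end of HoxA beside Hoxa3, was -0.71 ± 0.59 (SD, n = 4) in HFD late tumors, and its group means elsewhere ran from -1.70 to -1.41. Its probe was well above background in 5 of 20 usable tumors, 3 of HFD late and 2 of HFD early. In the HFD-LFD early, LFD late, LFD-HFD late and HFD-LFD late groups no tumor reached that level, so those means lie near background and carry no test. Hoxa11os, the antisense transcript of Hoxa11, differed by -0.52 between early and late tumors (adjusted p = 0.0618 over all probes). In the tumor with the highest Hoxb9, MSU_96 of HFD late, 4 of 21 measured members lay above their median, beside 46.5% of all genes. Its proliferation list had the highest mean of the 24 tumors. MSU_45, which had the highest adipocyte list mean (1.21), lay above the median in 25 of 29 members, beside 54.5% of all genes. The part of these lists in the Hox values was not tested.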
